A study of Mus musculus with 8 samples.

Results

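Gene expression after 72 h of c-Src induction was compared with that of uninduced cells (0 h) in mouse embryonic fibroblasts (MEFs) that lack Csk. The comparison took 4 of the 8 arrays of a time course, 2 arrays at 72 h and 2 at 0 h; the other 4 arrays, 2 each at 6 h and 24 h, entered the estimate of spread and a comparison of late with earlier times. Both groups had the same Csk-/- genotype and carried the c-Src vector pBKT2-c-Src, and the 72 h cells had been kept with 1 µg/ml doxycycline, the inducer, whereas the 0 h cells had not yet been induced. Each time was run in duplicate. Since no label says that the 2 samples of a time were grown apart, p-values describe the spread between arrays, which may be technical. No label describes a vector-only line with doxycycline or uninduced cells kept for 72 h, so c-Src, doxycycline and 72 h of further culture cannot be told apart. A probe was used where it was well above background on both arrays of at least 1 of the 2 times, which held for 28213 of 55681 probes, and these stood for 20594 genes. Of these genes 19266 were well above background on all 4 arrays, and the rest include genes that passed through 1 time alone, whose difference is in part set by that rule.

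c-Src is a non-receptor tyrosine kinase held inactive by an intramolecular contact with its phosphorylated C-terminal tyrosine, and Csk is the kinase that phosphorylates that residue. Without Csk this restraint is lacking, and raised c-Src is known to signal through focal adhesion proteins, the Ras–ERK cascade, PI3K and STAT3. Active Src is known from fibroblast transformation for loss of matrix and stress fibres, secretion of proteases, and altered metabolism.

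The values below are scaled signals, in which the 75th percentile of each array is set at 100, and differences are 72 h minus 0 h on the log2 scale with their standard error (SE), tested with limma over 8 arrays and adjusted by the Benjamini-Hochberg method. The median SE was 0.075. The 75th percentile of the raw signal was 385.5 and 374 on the 72 h arrays, against 381.1 and 383.5 on the 0 h arrays, and between 50.3% and 53.7% of the spots on these 4 arrays were well above background. Log2 signals of the duplicates correlated across genes at r = 0.998 at 72 h and 0.997 at 0 h (genes are not independent replicates). All arrays lay on 1 slide and time followed the slide position, so position and time cannot be told apart.

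By 72 h, c-Src RNA stood 19.6-fold above that of uninduced cells, and expression had changed widely. Of the 20594 genes, 10884 (52.9%) passed the threshold, an adjusted p under 0.05: 5739 were higher at 72 h (27.9%) and 5145 were lower (25%). In 78.6% of the genes the 72 h and 0 h arrays did not overlap, so that a lack of overlap is common here. Most called differences were small: 600 of the higher genes and 1029 of the lower ones differed by 2-fold or more. The genes that rose most encode a proliferin hormone, transcription factors of the AP-1 and ETS families, the ERK phosphatase Dusp4 and the chromatin protein Hmga2, and those that fell most include the thioredoxin-binding protein Txnip and the retinol-handling Rdh10 and Stra6. Scaling each array to its median, which moved the median gene to 0.18, left 2685 lower genes, and 75% of calls were then higher, against 52.7% in the main scaling.

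**Figure D1:**
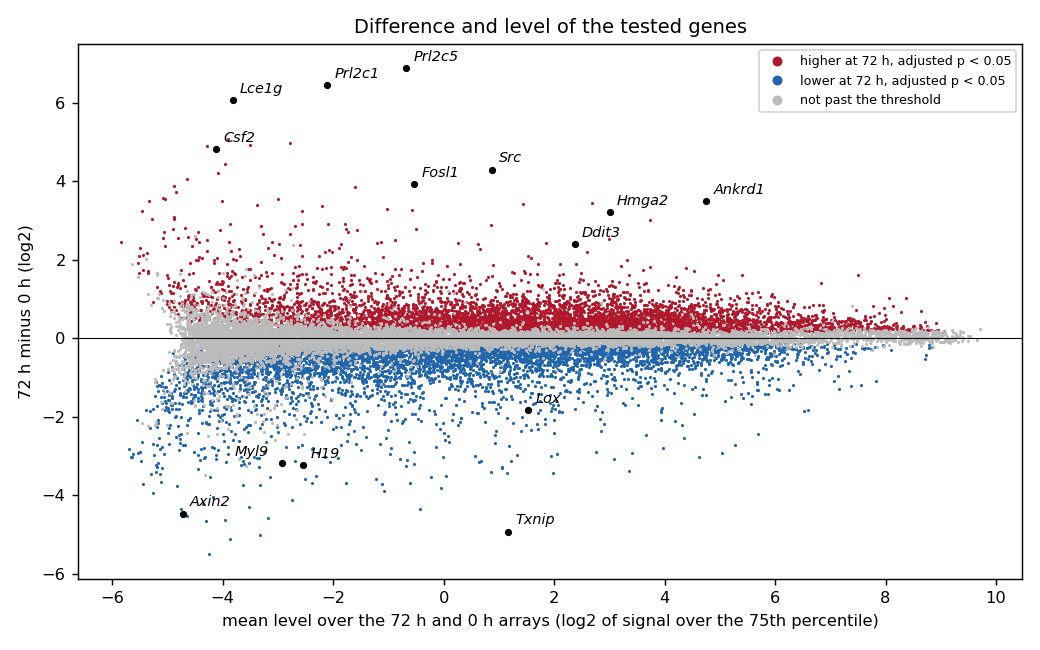
Each point is 1 of the 20594 genes tested, with its mean log2 level over the 72 h and 0 h arrays on the horizontal axis and its difference, 72 h minus 0 h in log2 units, on the vertical axis. Red points are the 5739 genes called higher, blue points the 5145 called lower and grey points the rest, and the spread of uncalled genes widens at low levels, where Axin2, Csf2 and Lce1g lie.

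Src and Csk, the genes that the labels say were changed, were read first. Src gave 815 and 812 at 72 h, against 39.3 and 43.7 at 0 h, a difference of 4.29 ± 0.06 (adjusted p = 5.38e-06). Both 72 h arrays were far above both 0 h arrays, and the probe (chr2:157293336-157294267, mm9) does not tell RNA of the vector from that of the cell's own gene. Csk, for which the array has 1 probe (chr9:57474734-57474793, mm9; whether it lies in the deleted part is not given in the sources used here), was not well above background at either time, with 0.535 and 0.735 at 72 h, against 0.639 and 0.795 at 0 h. Fer, another non-receptor tyrosine kinase and not named in the labels as changed, had 407 and 430.5 at 72 h, against 234 and 252 at 0 h, a difference of 0.79 ± 0.09 (adjusted p = 0.00109), and its 3 probes differed by between 0.55 and 0.79. Src was highest at 6 h: the scaled signals were 39.3 and 43.7 at 0 h, 1102 and 1126 at 6 h, 981 and 992 at 24 h and 815 and 812 at 72 h.

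Among ranked genes measured at both times the largest rise was that of Prl2c5, a proliferin of the prolactin family first known from growing mouse fibroblasts. Its signals were 690.2 and 669 at 72 h, against 5.33 and 6.27 at 0 h, a difference of 6.88 ± 0.08 (adjusted p = 4.28e-06). Prl2c1 was dark in uninduced cells and at least 61.4-fold higher at 72 h (adjusted p = 3.43e-06). Such a bound sets the brighter time against the lowest signal that counts as well above background, or the probe's own signal where that is higher. Every gene given with a bound, here and below, entered the test through the brighter time alone. A p-value printed with a bound is that of limma for the difference itself and is in part set by that entry. Proliferin genes are near-identical copies, so which copy gave the signal is uncertain. Neither overlapped with its 0 h values, which for Prl2c1 is in part set by its entering the test through the 72 h arrays alone.

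Fosl1, the AP-1 subunit Fra-1, gave 276 and 262 at 72 h, against 16.0 and 19.6 at 0 h, a difference of 3.93 ± 0.10 (adjusted p = 1.88e-05). The ETS factor Etv4 had 2077 and 2155 at 72 h, against 187 and 201 at 0 h, 3.45 ± 0.10 higher, and the nuclear ERK phosphatase Dusp4 had 896 and 872 at 72 h, against 83.4 and 82.9 at 0 h, 3.41 ± 0.05 higher. For all 3, every 72 h array was well above every 0 h array. Hmga2, an architectural chromatin protein of embryonic and transformed cells, reached 2387 and 2506 at 72 h, against 255 and 276 at 0 h, a difference of 3.21 ± 0.07. Ankrd1, a nuclear ankyrin-repeat protein and a target of YAP, had 9084 and 9036 at 72 h, against 809 and 801 at 0 h, a difference of 3.49 ± 0.08. Spp1, the secreted phosphoprotein osteopontin, had 3894 and 3696 at 72 h, against 501 and 446 at 0 h, a difference of 3.00 ± 0.07. Adjusted p-values of these 5 genes lay between 6.72e-06 and 2.21e-05.

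The other genes among the 12 largest rises started from low signals. Acsbg1, which activates long-chain fatty acids, gave 127 and 124 at 72 h, against 8.17 and 9.14 at 0 h, a difference of 3.86 ± 0.12. Npy4r, a receptor of pancreatic polypeptide, gave 62.8 and 66.6 at 72 h, against 8.43 and 8.62 at 0 h, 2.92 ± 0.13 higher. Tmem171 rose by 3.29 ± 0.16 and the pseudogene Speer6-ps1, of a multi-copy family and thus uncertain, by 3.23 ± 0.10. With a different background correction (normexp, run with an offset of 50, which alone shrinks log2 differences of dim genes, so that the correction and the offset are not separated) the differences were smaller at 2.42 for Acsbg1, 1.83 for Npy4r and 1.65 for Speer6-ps1.

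Of the 5739 genes called higher, 131 were not well above background on either 0 h array. The largest bounds after Prl2c1 were for Sprr2h and Lce1g, both of the epidermal cornified envelope, at least 22.96-fold and 16.5-fold, and for Serpinb2, the plasminogen activator inhibitor PAI-2, at least 13.8-fold. Evi2a followed at 11.1-fold or more, and Klra4, of the Ly49 lectin receptor family, at 8.79-fold or more. All 5 were picked among called genes that entered the test through the 72 h arrays alone. Their adjusted p-values by limma, between 3.58e-05 and 0.000311, are in part set by that choice. Sprr2, Lce and Klra genes have close copies, and the identity of these 3 is uncertain. Serpinb2 showed 50.1 and 47.4 at 72 h, against 0.999 and 2.59 at 0 h, and the groups did not overlap, which the same choice sets in part. With normexp the differences of these 6 genes, Prl2c1 included, were between 1.36 and 3.87.

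**Figure D2:**
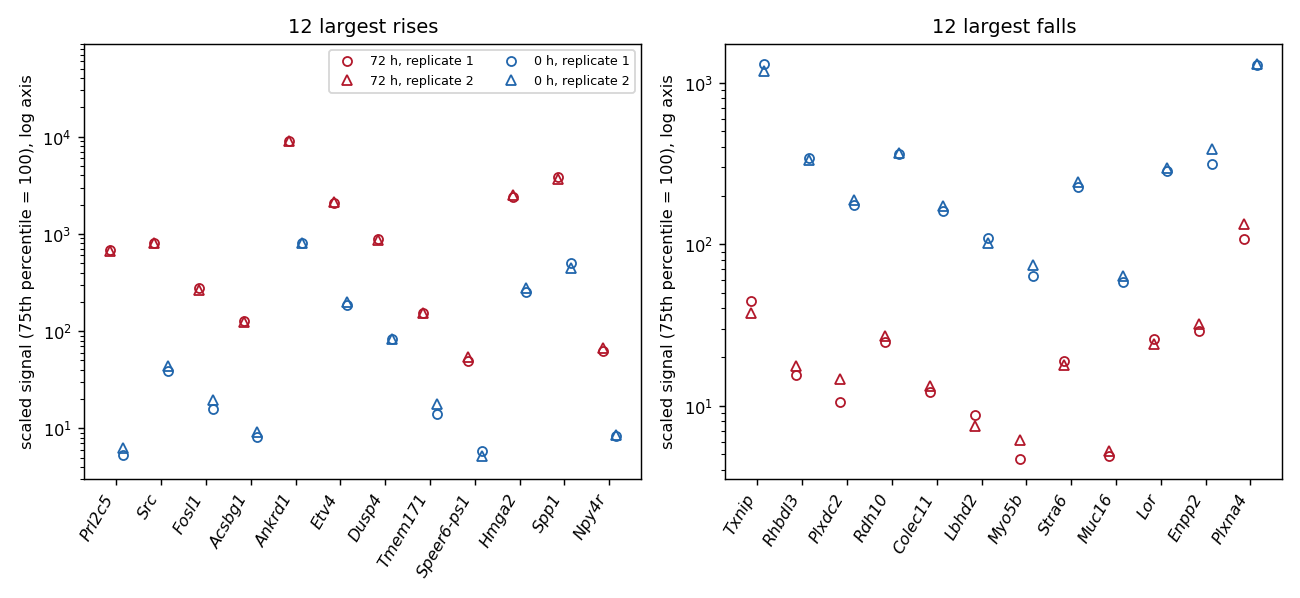
Scaled signal on each array, on a log axis, for the 12 largest rises (left) and the 12 largest falls (right) among genes well above background on all 4 arrays. Red symbols are 72 h and blue symbols 0 h, circles replicate 1 and triangles replicate 2, and the duplicates lie close together beside the gap between times, as for Prl2c5 (690.2 and 669 at 72 h, 5.33 and 6.27 at 0 h).

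Txnip fell most among ranked genes measured at both times. This arrestin-family protein binds thioredoxin and restrains glucose uptake. Its signals were 44.5 and 37.6 at 72 h, against 1311 and 1176 at 0 h, a difference of -4.92 ± 0.15 (adjusted p = 2.77e-05), and a second probe gave -4.12. Both 72 h arrays lay far below both 0 h arrays. Rhbdl3, a rhomboid-family membrane protein, had 15.4 and 17.5 at 72 h, against 339.9 and 334 at 0 h, a difference of -4.36 ± 0.11. Plxdc2, a plexin-domain membrane protein, had 10.52 and 14.6 at 72 h, against 176 and 189 at 0 h, a difference of -3.88 ± 0.17. The semaphorin receptor Plxna4 gave 108 and 133 at 72 h, against 1281 and 1303 at 0 h, a difference of -3.43 ± 0.13, and its second probe -2.09.

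Rdh10, which oxidises retinol to retinal, gave 24.9 and 26.9 at 72 h, against 364 and 366 at 0 h, a difference of -3.82 ± 0.17. Stra6, the cell-surface receptor of retinol-binding protein, gave 18.9 and 17.9 at 72 h, against 225 and 244 at 0 h, a difference of -3.67 ± 0.13. Both were lower on each 72 h array than on either 0 h array. Enpp2, the secreted enzyme autotaxin that makes lysophosphatidic acid, had 28.9 and 31.9 at 72 h, against 312 and 387 at 0 h, a difference of -3.52 ± 0.25. Colec11, a secreted collectin, and Lor, loricrin of the cornified envelope, fell by 3.71 ± 0.26 and 3.54 ± 0.17. Lbhd2, Myo5b, a motor of membrane recycling, and Muc16, a large mucin, fell by 3.70 ± 0.10, 3.68 ± 0.20 and 3.58 ± 0.09, and with the normexp correction the differences were -2.38, -1.95 and -1.84. The 12 largest falls had adjusted p-values between 1.75e-05 and 0.000194.

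Of the 5145 genes called lower, 214 were not well above background on either 72 h array. Tmem255a was at least 18.6-fold lower at 72 h and Rtn4rl1, of the Nogo receptor family, at least 17.4-fold lower. Car3, a carbonic anhydrase abundant in fat and slow muscle, was at least 13.0-fold lower, with 0.839 and 1.60 at 72 h, against 39.4 and 40.4 at 0 h. Fgf9, a fibroblast growth factor, was at least 12.6-fold lower, Rspo3, a secreted enhancer of Wnt signalling, at least 11.8-fold lower, and Adrb3, the beta-3 adrenergic receptor, at least 10.9-fold lower. These 6 were picked among called genes that entered the test through the 0 h arrays alone. Their adjusted p-values by limma, between 2.77e-05 and 0.000417, and their lack of overlap between the times are in part set by that choice. With normexp their differences were between -1.97 and -1.35.

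Genes that growth-factor signalling is known to switch on were mostly higher. Of 14 tested early growth-factor response factors, 10 were higher at 72 h and 2 lower, with a median difference of 0.51, beside 27.9% higher, 25% lower and a median of 0.0034 over all genes. Every list count of 72 h against 0 h below is to be read beside these all-gene values. After Fosl1 the largest rise was that of the growth regulator Myc, with 602 and 609 at 72 h, against 143 and 150.3 at 0 h, a difference of 2.05 ± 0.07 (adjusted p = 3.58e-05). Its values did not overlap. The zinc-finger factor Egr2 rose by 1.36 ± 0.08 and the stress-responsive factor Atf3 by 1.07 ± 0.05. The AP-1 subunits went separate ways: Fosl2 fell by 1.04 ± 0.05 and Fos by 0.55 ± 0.13, Junb was 0.45 higher, and Fosb and Jun, at -0.07 and 0.11, did not pass the threshold. Egr3 did not meet the brightness rule, and with normexp the rise of Egr2 was 0.90.

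ERK target and feedback genes counted 10 higher and 1 lower of 15, with a median of 0.63. Beside Etv4 and Dusp4, the ETS factor Etv5 had 1269.5 and 1309 at 72 h, against 280.0 and 286 at 0 h, a difference of 2.19 ± 0.05 (adjusted p = 1.65e-05), and the cytoplasmic ERK phosphatase Dusp6 had 3766 and 3962 at 72 h, against 1157 and 1086 at 0 h, a difference of 1.78 ± 0.07 (adjusted p = 4.88e-05). Neither gene overlapped between times. Of the Sprouty and Spred proteins, which restrain Ras–ERK signalling, Spred3, Spry4, Spred1 and Spred2 were 1.21, 0.70, 0.63 and 0.38 higher, with Spred3 well above background at 0 h on 1 array, Spry1 fell by 0.73 ± 0.06, and Spry2 at 0.18 did not pass. Cyclin D1 (Ccnd1) rose by 0.42 ± 0.06. None of the 15 was higher at 72 h than at 24 h and 5 were lower than at 24 h, beside 11.2% higher and 11% lower over all genes in that comparison. Egr2 and Dusp6 were brightest at 6 h: Egr2 had 21.2 and 24.4 at 0 h, 566 and 572 at 6 h, 195 and 182 at 24 h and 57.9 and 58.7 at 72 h, and Dusp6 had 1157 and 1086 at 0 h, 7076 and 7670.1 at 6 h, 6523 and 7143 at 24 h and 3766 and 3962 at 72 h.

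Secreted cytokines and growth factors counted 11 higher and 4 lower of 17 tested, with a median of 0.44. Csf2, the granulocyte-macrophage colony-stimulating factor, was at least 8.61-fold higher (adjusted p = 2.32e-05 by limma), with 29.4 and 31.3 at 72 h, against 0.957 and 1.22 at 0 h. It entered the test through the 72 h arrays alone, so its difference and p-value are in part set by that rule. The EGF receptor ligands Ereg and Hbegf rose by 2.41 ± 0.12 and 1.37 ± 0.10, the monocyte chemokines Ccl7 and Ccl2 by 1.67 ± 0.07 and 0.71 ± 0.05, and Vegfa, the main angiogenic factor, by 0.86 ± 0.05. Il11 rose by 0.81 ± 0.13 and Lif by 0.44 ± 0.10, both ligands of gp130 receptors, while Il6 at -0.31 did not pass. Cxcl12, the ligand of Cxcr4, had 4926 and 5322 at 72 h, against 17895 and 18577 at 0 h, a difference of -1.83 ± 0.09 (adjusted p = 5.69e-05). Every 72 h value of Cxcl12 lay below the 0 h values. With normexp the differences of Csf2 and Ereg were 1.45 and 1.49.

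Matrix proteases and plasminogen activators split, with 7 higher and 4 lower of 13 and a median of 0.28. Plaur, the urokinase receptor, had 2009 and 1977 at 72 h, against 493 and 506 at 0 h, a difference of 1.996 ± 0.06 (adjusted p = 2.77e-05). The stromelysins Mmp10 and Mmp3 gave 139 and 160.0 at 72 h, against 37.4 and 42.4 at 0 h, and 32.5 and 35 at 72 h, against 13.3 and 13.5 at 0 h, differences of 1.91 ± 0.11 and 1.34 ± 0.07. All of these lay above their 0 h values on both 72 h arrays. Mmp19, collagenase Mmp13 and membrane-bound Mmp14 were 0.91, 0.71 and 0.30 higher. The aggrecanase Adamts5, collagenase Mmp8, the plasminogen activator Plat and Mmp11 fell by 1.47, 1.23, 1.06 and 0.61, with Mmp8 well above background at 72 h on 1 array, and gelatinase Mmp2 at -0.18 did not pass. With normexp Mmp3 differed by 0.68 and Adamts5 by -0.57.

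Promoters of the proteases are shown because 4 of the 9 with a promoter in the table held the AP-1 motif TGANTCA, to which Fos and Jun family dimers such as those with Fosl1 bind. Sequences are the 250 bases before the RefSeq transcript start on build GRCm38.p6, 5′ to 3′ on the strand of the gene, with the motif in capitals.
Plaur, chr7:24462233-24462482, plus strand: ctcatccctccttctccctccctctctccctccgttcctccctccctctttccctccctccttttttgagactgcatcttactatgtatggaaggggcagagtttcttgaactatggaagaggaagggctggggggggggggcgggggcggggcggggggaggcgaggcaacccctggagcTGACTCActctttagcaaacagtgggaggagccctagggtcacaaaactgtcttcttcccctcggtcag
Mmp3, chr9:7445572-7445821, plus strand: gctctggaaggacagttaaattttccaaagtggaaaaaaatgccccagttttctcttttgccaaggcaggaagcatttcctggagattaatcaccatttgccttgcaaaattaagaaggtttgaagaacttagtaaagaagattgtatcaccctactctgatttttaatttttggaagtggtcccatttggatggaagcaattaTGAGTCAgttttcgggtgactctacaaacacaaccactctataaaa
Mmp10, chr9:7502092-7502341, plus strand: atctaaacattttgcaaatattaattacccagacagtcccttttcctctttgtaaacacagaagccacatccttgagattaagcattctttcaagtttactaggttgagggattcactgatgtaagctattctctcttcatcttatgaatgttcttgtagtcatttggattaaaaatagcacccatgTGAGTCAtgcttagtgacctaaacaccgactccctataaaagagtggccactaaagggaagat
Mmp13, chr9:7272264-7272513, plus strand: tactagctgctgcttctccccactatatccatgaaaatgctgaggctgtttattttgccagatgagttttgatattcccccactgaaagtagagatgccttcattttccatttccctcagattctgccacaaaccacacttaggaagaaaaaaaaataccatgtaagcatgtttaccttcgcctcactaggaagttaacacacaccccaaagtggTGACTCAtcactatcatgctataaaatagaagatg
The motif, which reads as itself on the opposite strand, began 69, 46, 63 and 35 bases before the start of Plaur, Mmp3, Mmp10 and Mmp13. From 250 bases before to 50 after the start, it was in 7.81% of 32851 promoters and in 6.54% of 10859 tested genes with a promoter. It was in 0 of 9 promoters of ERK target genes and 0 of 10 of early response factors. A match is a description of the letters and not a bound site.

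Among protease inhibitors 2 were higher and 4 lower of 9, with a median of 0.09. The split depended on the setting. With median scaling 4 were higher and 3 lower, with a median of 0.27. Asking for all 4 arrays well above background left 1 higher and 4 lower of 7, with a median of -0.41. Serpinb2, described above, was among those that rose. Timp3, the matrix-bound metalloproteinase inhibitor, gave 2494 and 2554 at 72 h, against 7279.6 and 7176 at 0 h, a difference of -1.52 ± 0.04 (adjusted p = 2.17e-05), and the groups did not overlap. The membrane-anchored inhibitor Reck fell by 0.41 ± 0.09, and Timp1 and Timp2, at 0.11 and 0.09, did not pass the threshold.

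Structural genes of the extracellular matrix were lower as a group: 15 of 17 fell, none rose and the median was -0.90. Lox, the enzyme that crosslinks collagen and elastin, had 153 and 153 at 72 h, against 530.0 and 552 at 0 h, a difference of -1.82 ± 0.05 (adjusted p = 1.93e-05). Col6a2 and Col3a1, chains of collagens VI and III, had 115 and 105.3 at 72 h, against 471 and 429.5 at 0 h, and 3142 and 3395 at 72 h, against 8034 and 8198 at 0 h, differences of -2.03 ± 0.19 and -1.31 ± 0.06. Both 72 h arrays lay below both 0 h arrays for each. The chains of collagen I fell by 0.44 for Col1a1 and 0.92 for Col1a2, fibronectin (Fn1) by 0.29 and fibrillin 1 (Fbn1) by 0.48. Fbln5, which assembles elastic fibres, was at least 7.32-fold lower (adjusted p = 0.00156 by limma, in part set by its entry through the 0 h arrays alone). Col5a1 and Bgn, at -0.12 and -0.06, did not pass. With median scaling 12 of the 17 were lower and none higher.

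Actin and contractile genes went both ways, 7 higher and 3 lower of 14, with a median of 0.25. Myl9, the regulatory light chain of non-muscle and smooth muscle myosin, had 4.41 and 4.28 at 72 h, against 37.6 and 41.6 at 0 h, a difference of -3.19 ± 0.15 (adjusted p = 5.49e-05). Cnn1, an actin-binding calponin of smooth muscle, had 9.08 and 7.03 at 72 h, against 70.6 and 72.2 at 0 h, a difference of -3.16 ± 0.12 (adjusted p = 4.13e-05). With the normexp correction these were -1.41 and -1.83. Smooth muscle actin (Acta2), the related calponin Cnn2 and the adhesion protein vinculin (Vcl) rose by 1.37 ± 0.06, 0.96 ± 0.06 and 0.67 ± 0.05. Tagln at -0.30 did not pass.

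Src family kinases and focal adhesion genes counted 8 higher and 6 lower of 20, the induced Src included, beside 27.9% higher and 25% lower over all genes. Yes1, a close relative of Src, rose by 0.54 ± 0.13, Lyn was at least 1.69-fold higher from a signal not well above background (adjusted p = 0.00279 by limma), and Fyn, at 0.16, did not pass. Lyn entered the test through the 72 h arrays alone, which sets its p-value in part. Integrin subunits Itga6, Itgb1 and Itga5 were 0.86, 0.46 and 0.31 higher and Itgb3 fell by 0.94 ± 0.06. The docking protein Nedd9, a Src substrate, had 46.0 and 42.5 at 72 h, against 161 and 152 at 0 h, a difference of -1.82 ± 0.06 (adjusted p = 3.58e-05), while the related Bcar1 was 0.25 higher. The focal adhesion protein Tns3 fell by 1.29 ± 0.08. Ptk2 (focal adhesion kinase), Pxn (paxillin) and Cttn (cortactin), at -0.09, 0.29 and 0.06, did not pass. Without the filter on dim probes 9 of the list passed in place of 14. With median scaling 11 were higher and 3 lower, and with the 4 arrays of 72 h and 0 h alone 10 were higher and 4 lower.

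Adhesion and gap junction genes split, 4 higher and 5 lower of 11, beside 27.9% higher and 25% lower over all genes. The mesenchymal cadherin Cdh11 had 25.6 and 24.0 at 72 h, against 110.2 and 104 at 0 h, a difference of -2.11 ± 0.10, and connexin 43 (Gja1), whose channels Src is known to close, had 193 and 182 at 72 h, against 528 and 461 at 0 h, a difference of -1.40 ± 0.09. Neither overlapped between times. Ncam1 fell by 1.29 ± 0.06, and the hyaluronan receptor Cd44 and Vcam1 rose by 0.54 ± 0.06 and 0.54 ± 0.06. Of growth-factor receptor tyrosine kinases, 5 rose and 4 fell of 13, beside the same shares over all genes. Both platelet-derived growth factor receptors fell, Pdgfrb by 1.62 ± 0.10 and Pdgfra by 1.18 ± 0.08, while Kit, Axl and Epha2 rose by 1.61 ± 0.07, 0.98 ± 0.06 and 0.90 ± 0.05. Egfr at 0.05 did not pass.

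**Figure D3:**
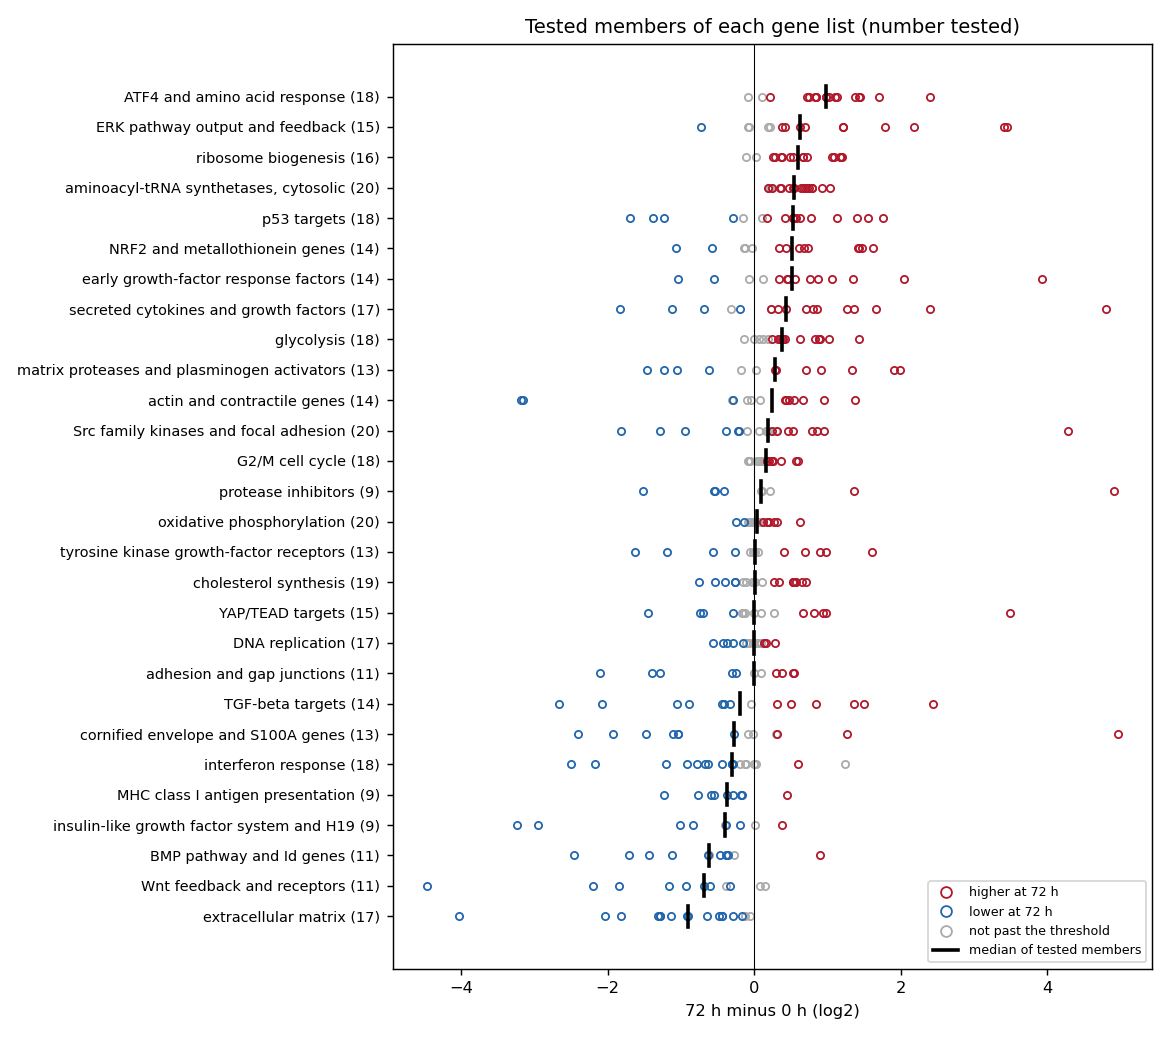
Each circle is a tested member of a gene list, at its difference, 72 h minus 0 h in log2 units, and each black bar is the list's median. Lists run down the page by median, from ATF4 and amino acid response (0.98) to extracellular matrix (-0.90), with red for members higher at 72 h, blue for lower and grey for those not past the threshold; the proliferin genes, with 2 tested members, are not drawn.

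ATF4 targets and amino acid genes rose nearly throughout: 16 of 18 were higher, none lower, and the median was 0.98. ATF4 is the transcription factor of the integrated stress response and of amino acid shortage. Ddit3 (CHOP) had 1160.5 and 1218 at 72 h, against 218 and 234 at 0 h, a difference of 2.40 ± 0.08 (adjusted p = 3.43e-05). The pseudokinase Trib3 had 4175 and 4186 at 72 h, against 1173 and 1406 at 0 h, a difference of 1.70 ± 0.10, and the mitochondrial folate enzyme Mthfd2 had 888 and 914 at 72 h, against 315 and 350.0 at 0 h, a difference of 1.44 ± 0.09. These 3 did not overlap between times. The cystine transporter Slc7a11 and the glutathione-degrading Chac1 rose by 1.43 ± 0.12 and 1.38 ± 0.07, Atf4 itself by 1.02 ± 0.08, and asparagine synthetase (Asns) and the serine synthesis enzymes Phgdh, Psat1 and Psph by between 0.75 and 0.85. Ddit4 and Sesn2, at -0.09 and 0.11, did not pass. Of the 18 genes, 14 were also higher at 72 h than at 24 h, beside 11.2% of all genes, as Ddit3 was by 1.102 ± 0.08 (adjusted p = 0.00223). The calls of that comparison over all genes depended on single arrays, with 1193 left without the first 72 h array, 1532 without the second and 1938 without the first 24 h array, out of 4565, and the list was not counted again without them. With normexp the rise of Slc7a11 was 0.89.

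Promoters of ATF4 targets are shown because 6 of the 17 with a promoter in the table held the core motif TGATGNAA of the element that ATF4 and C/EBP proteins bind, on either strand. The motif is in capitals, in the same build and direction as above.
Slc7a11, chr3:50443614-50443863, minus strand: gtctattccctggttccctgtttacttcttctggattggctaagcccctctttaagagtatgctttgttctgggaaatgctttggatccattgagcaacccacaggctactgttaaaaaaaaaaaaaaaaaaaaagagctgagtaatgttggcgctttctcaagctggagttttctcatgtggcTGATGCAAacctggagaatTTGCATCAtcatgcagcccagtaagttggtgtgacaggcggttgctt
Asns, chr6:7693210-7693459, minus strand: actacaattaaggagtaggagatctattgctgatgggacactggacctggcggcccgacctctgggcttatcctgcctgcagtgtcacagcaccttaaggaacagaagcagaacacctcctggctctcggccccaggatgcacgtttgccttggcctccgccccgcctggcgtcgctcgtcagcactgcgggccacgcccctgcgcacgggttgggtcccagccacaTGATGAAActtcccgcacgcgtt
Chac1, chr2:119350992-119351241, plus strand: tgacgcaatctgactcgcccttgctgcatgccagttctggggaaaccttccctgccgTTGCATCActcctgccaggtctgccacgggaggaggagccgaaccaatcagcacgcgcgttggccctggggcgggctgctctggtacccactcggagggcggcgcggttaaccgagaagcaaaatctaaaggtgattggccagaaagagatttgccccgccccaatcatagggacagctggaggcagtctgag
On the gene's strand its first base lay 66 and 47 bases before the start of Slc7a11, 23 before that of Asns and 193 before that of Chac1. The same motif was in 3.97% of all 32851 promoters and in 2.87% of the 10859 tested genes. The other 3 genes with it were Trib3, Nupr1 and Vldlr, of which Vldlr had the smallest rise, 0.21 ± 0.06.

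Cytosolic aminoacyl-tRNA synthetases, which charge tRNAs with amino acids, counted 16 higher and none lower of 20, with a median of 0.54. Iars, for isoleucine, had 3952 and 3987 at 72 h, against 1846 and 2022 at 0 h, a difference of 1.04 ± 0.06 (adjusted p = 0.000119), and Sars, for serine, had 9107 and 9247 at 72 h, against 4637 and 5024 at 0 h, a difference of 0.93 ± 0.06 (adjusted p = 0.000149). Neither overlapped. Members that did not pass, Farsa, Dars, Yars and Hars, differed by between 0.20 and 0.24. Ribosome biogenesis genes counted 14 higher and none lower of 16, with a median of 0.60, led by Rrp9, Gnl3 (nucleostemin), Wdr43 and Heatr1, which rose by 1.20 ± 0.06, 1.19 ± 0.05, 1.18 ± 0.06 and 1.09 ± 0.07.

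Glycolysis genes counted 13 higher and none lower of 18, with a median of 0.39. Hexokinase 2 (Hk2), the inducible enzyme of the first step, had 1471 and 1481 at 72 h, against 549 and 544 at 0 h, a difference of 1.43 ± 0.06 (adjusted p = 4.45e-05). Aldolase A (Aldoa) had 47207 and 47727 at 72 h, against 23163 and 23539 at 0 h, a difference of 1.02 ± 0.06 (adjusted p = 0.000113), and the glucose transporter Slc2a1 had 2482 and 2471 at 72 h, against 1326 and 1334 at 0 h, a difference of 0.90 ± 0.04 (adjusted p = 5.49e-05). Each was higher on both 72 h arrays. Phosphofructokinase Pfkl and the pyruvate dehydrogenase kinase Pdk1 rose by 0.89 ± 0.06 and 0.89 ± 0.06, and Gapdh, Hk1 and Gpi1, at 0.19, 0.07 and 0.01, did not pass. Of 20 oxidative phosphorylation genes 6 were higher, near the 27.9% over all genes, 2 lower, beside 25%, and 12 not past the threshold, with a median of 0.04. Cytochrome c (Cycs) rose by 0.63 ± 0.06. With median scaling 11 of these 20 were higher and none lower.

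NRF2 targets and metallothioneins counted 9 higher and 2 lower of 14, with a median of 0.52. The metal-binding metallothioneins Mt2 and Mt1 had 7335 and 7583 at 72 h, against 2264 and 2590.0 at 0 h, and 18074 and 19250.0 at 72 h, against 6741 and 7233 at 0 h, differences of 1.62 ± 0.13 and 1.42 ± 0.07. Nqo1, a quinone reductase, and Hmox1, haem oxygenase, rose by 1.47 ± 0.07 and 0.74 ± 0.05, while the glutathione transferases Gsta4 and Gstm1 fell by 1.06 ± 0.09 and 0.57 ± 0.08. Cholesterol synthesis genes were mixed, 8 higher and 5 lower of 19, beside 27.9% higher and 25% lower over all genes, with a median of 0.02. The regulator Insig1 rose by 0.71 ± 0.12, and Hmgcs1, an early enzyme of the pathway, fell by 0.75 ± 0.06. With normexp Nqo1 and Insig1 differed by 0.72 and 0.45.

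Targets of p53 counted 12 higher and 4 lower of 18, with a median of 0.53. The cell cycle inhibitor Cdkn1a (p21) had 101 and 99.8 at 72 h, against 28.2 and 31.0 at 0 h, a difference of 1.76 ± 0.06 (adjusted p = 3.58e-05). The stress cytokine Gdf15 rose by 1.55 ± 0.17, the kinase Plk2 by 1.41 ± 0.09 and the pro-apoptotic Bbc3 (PUMA) by 1.14 ± 0.05. Members that fell were Sesn1, Btg2, Trp53inp1 and Pmaip1 (Noxa), by 1.69, 1.38, 1.23 and 0.29. With normexp the rise of Gdf15 was 0.58.

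Cell cycle genes moved little. Of 18 G2/M genes 9 were higher and none lower, with a median of 0.16 and a highest value of 0.60 for the checkpoint kinase Bub1. Mki67, the antigen Ki-67, and Top2a, at -0.08 and -0.07, did not pass. Of 17 DNA replication genes 3 were higher and 5 lower, beside 27.9% higher and 25% lower over all genes. Cdc45 was 0.28 higher, and the falls were led by thymidylate synthase (Tyms), by 0.57 ± 0.08, and Rrm2, the inducible subunit of ribonucleotide reductase, by 0.43 ± 0.05. With median scaling the split was 7 higher and 1 lower. The G2/M and DNA replication counts both shrank in several other settings, to as few as 4.

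Wnt feedback genes and receptors counted none higher and 8 lower of 11, with a median of -0.69. Axin2, the usual feedback target of beta-catenin, was at least 5.80-fold lower (adjusted p = 3.58e-05 by limma), with 0.751 and 0.864 at 72 h, against 17.8 and 17.8 at 0 h. It entered the test through the 0 h arrays alone, so its difference is in part set by that rule. Nkd1, another feedback inhibitor, had 3.48 and 4.89 at 72 h, against 21.0 and 17.0 at 0 h, a difference of -2.20 ± 0.24. Neither overlapped between times. The ligands Wnt5a and Wnt4 fell by 1.85 ± 0.09 and 0.93 ± 0.07 and the transcription factor Lef1 by 1.17 ± 0.05. Fzd2 and Nkd2, at 0.15 and 0.08, did not pass, and with median scaling 7 were lower and 1 was higher. With normexp Axin2 and Nkd1 differed by -0.97 and -0.70.

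BMP pathway and Id genes counted 1 higher and 8 lower of 11, with a median of -0.61. The transcription repressor Hey1 had 80.6 and 81.5 at 72 h, against 443 and 446 at 0 h, a difference of -2.45 ± 0.12 (adjusted p = 6.17e-05). Id4, Id3 and Id1, inhibitors of basic helix-loop-helix factors and known BMP targets, fell by 1.71, 0.63 and 0.46, the inhibitory Smad6 by 1.44 ± 0.07 and the ligand Bmp4 by 1.12 ± 0.07. Bmper, an extracellular BMP modulator, rose by 0.90 ± 0.07, and with normexp Id4, which only 1 array at 72 h read well above background, differed by -0.56. Genes of the TGF-beta system went both ways, 6 higher and 7 lower of 14: the ligands Tgfb2 and Tgfb3 fell by 2.67 ± 0.12 and 2.08 ± 0.09, Tgfb1 rose by 0.51 ± 0.05, and Ltbp1, which holds latent TGF-beta in the matrix, had 864 and 827 at 72 h, against 154 and 158 at 0 h, a difference of 2.44 ± 0.06 (adjusted p = 1.88e-05).

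Targets of YAP and TEAD counted 5 higher and 4 lower of 15, near the 27.9% higher and 25% lower over all genes, with a median of 0.00. After Ankrd1, the matricellular Ccn2 and Ccn1 rose by 0.95 ± 0.05 and 0.82 ± 0.08, and Arhgef17 fell by 1.45 ± 0.07. In the insulin-like growth factor system 1 was higher and 6 lower of 9. The imprinted RNA H19 had 5.62 and 5.57 at 72 h, against 51.5 and 53.7 at 0 h, a difference of -3.23 ± 0.07 (adjusted p = 1.65e-05), and Igfbp2, an IGF-binding protein, was at least 6.08-fold lower (adjusted p = 0.000246 by limma). Igfbp2 entered the test through the 0 h arrays alone, which sets its p-value in part. Igfbp4 and Igfbp3 fell by 1.01 ± 0.05 and 0.84 ± 0.18, and Igf2r, which clears IGF-II, rose by 0.38 ± 0.04. With median scaling 3 were lower and 1 higher, and with normexp H19 and Igfbp2 differed by -1.66 and -0.92.

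Interferon response genes counted 1 higher and 11 lower of 18, with a median of -0.30. The guanylate-binding proteins Gbp2 and Gbp3 had 5.30 and 4.36 at 72 h, against 26.0 and 28.4 at 0 h, and 6.60 and 9.002 at 72 h, against 35.7 and 34.0 at 0 h, differences of -2.50 ± 0.10 and -2.18 ± 0.40 (adjusted p = 4.96e-05 and 0.00583). Both 72 h arrays were below both 0 h arrays for each, and only 1 array at 72 h read Gbp2 well above background. Oasl2 and the ubiquitin-like Isg15 fell by 1.20 ± 0.10 and 0.67 ± 0.05. Ifit1 and Ifit3, at -0.20 and 0.00, did not pass, and Bst2 (tetherin) rose by 0.60 ± 0.07. With median scaling 7 were lower and 1 higher, and with normexp Gbp2 and Gbp3 differed by -1.04 and -1.05.

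Promoters of the Gbp genes are shown because 10 of 15 interferon response genes with a promoter in the table held the interferon response element (GAAA and GAAA parted by any 2 bases, on either strand), given in capitals.
Gbp2, chr3:142620413-142620662, plus strand: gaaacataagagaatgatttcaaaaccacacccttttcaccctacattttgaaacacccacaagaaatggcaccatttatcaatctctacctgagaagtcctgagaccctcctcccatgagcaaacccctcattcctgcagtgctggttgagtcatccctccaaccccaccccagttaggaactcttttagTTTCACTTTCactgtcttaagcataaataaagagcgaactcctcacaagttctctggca
Gbp3, chr3:142559794-142560043, plus strand: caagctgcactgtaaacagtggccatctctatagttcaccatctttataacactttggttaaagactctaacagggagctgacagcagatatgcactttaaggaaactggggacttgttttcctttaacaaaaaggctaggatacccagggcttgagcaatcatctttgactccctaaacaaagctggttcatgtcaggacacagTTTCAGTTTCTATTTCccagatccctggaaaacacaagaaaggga
The element was in 3.44% of all 32851 promoters and 3.54% of the 10859 tested genes. Of the other list members that held it, Isg15, Ifih1 and Cxcl10 fell, Bst2 rose, and Ifit1, Ifit3, Stat2 and Ddx58 did not pass the threshold. A match is a description of the letters, and its part in the falls was not tested.

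Genes of MHC class I antigen presentation counted 1 higher and 8 lower of 9, with a median of -0.37, and with median scaling 3 were lower and 1 higher. The immunoproteasome subunit Psmb9 had 14.8 and 13.5 at 72 h, against 32.4 and 34.0 at 0 h, a difference of -1.24 ± 0.07 (adjusted p = 8.82e-05), the peptide-loading chaperone Tapbp fell by 0.77 ± 0.06 and the heavy chain H2-K1 by 0.59 ± 0.05. The light chain B2m rose by 0.45 ± 0.05, and with normexp Psmb9 differed by -0.71. Class I heavy chain genes resemble each other, so the split of signal among H2-K1, H2-D1 and H2-Q7 is uncertain.

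Cornified envelope and S100A genes counted 3 higher and 7 lower of 13, with a median of -0.27. Against the rise of Sprr2h stood falls of its relatives Sprr2f and Sprr2g by 1.47 ± 0.09 and 1.04 ± 0.08, of keratin 14 (Krt14) by 1.93 ± 0.14 and of the crosslinking enzyme Tgm1 by 1.11 ± 0.11. Sprr2 genes have close copies, so which copy gave each Sprr2 signal is uncertain, and Sprr2h entered the test through the 72 h arrays alone. Krt17 was at least 2.35-fold lower (adjusted p = 0.00213 by limma, in part set by its entry through the 0 h arrays alone). Sprr1a rose by 1.27 ± 0.05 and S100a6 by 0.31 ± 0.07, and S100a4 fell by 0.27 ± 0.05. With normexp Krt14, Krt17 and Sprr2f differed by -1.26, -0.32 and -0.65.

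Differences at 72 h that went beyond the earlier times were sought in the same fit. Against 24 h, 4565 genes (22.2%) passed: 2298 were higher at 72 h (11.2%) and 2267 lower (11%). Against 6 h, 9426 (45.8%) passed, 4805 higher (23.3%) and 4621 lower (22.4%). Past the threshold in the same direction against 0, 6 and 24 h were 1600 genes higher (7.77%) and 1555 lower (7.55%). The comparison with 24 h leaned on single arrays: its calls became 1193 without the first 72 h array, 1532 without the second 72 h array and 1938 without the first 24 h array.

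Late rises, ranked by the smallest of the 3 differences, were led by Lilrb4a, a leukocyte immunoglobulin-like receptor, with 0.733 and 0.992 at 0 h, 0.678 and 1.08 at 6 h, 2.84 and 3.33 at 24 h and 12.02 and 8.55 at 72 h. Lce1g was dark until 6 h, with 0.773 and 0.962 at 0 h, 0.684 and 1.02 at 6 h, 15.1 and 20.8 at 24 h and 62.4 and 53.9 at 72 h. Plin4, a coat protein of lipid droplets that 1 array at 0 h and 1 at 6 h read well above background, had 6.44 and 3.82 at 0 h, 6.43 and 4.47 at 6 h, 7.73 and 8.88 at 24 h and 27.8 and 26.3 at 72 h. These 3 were dim, and normexp gave them rises over 0 h of 0.70, 2.14 and 0.96. Ptgds, prostaglandin D synthase, had 15.6 and 15.03 at 0 h, 16.8 and 15.9 at 6 h, 19.3 and 25.6 at 24 h and 64.8 and 63.6 at 72 h, and Angptl6, a secreted angiopoietin-like protein, had 309 and 342 at 0 h, 272 and 261 at 6 h, 311 and 354 at 24 h and 921 and 943 at 72 h. Angptl6 was 1.49 ± 0.08 above 24 h and 1.52 ± 0.08 above 0 h, and its 24 h values overlapped with those at 0 h. Maats1 had 10.53 and 12.5 at 0 h, 7.26 and 6.60 at 6 h, 18.2 and 21.6 at 24 h and 51.3 and 53.7 at 72 h, and normexp gave it a rise over 0 h of 1.21.

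Late falls were led by Tmem255a, with 54.0 and 60.3 at 0 h, 50.9 and 58.6 at 6 h, 26.5 and 12.4 at 24 h and 1.40 and 2.21 at 72 h, and Fbln5, with 24.0 and 21.0 at 0 h, 16.8 and 15.3 at 6 h, 11.4 and 9.69 at 24 h and 0.753 and 2.52 at 72 h. Prxl2a, a peroxiredoxin-like protein, was the brightest, with 754 and 693 at 0 h, 701 and 675 at 6 h, 533 and 394 at 24 h and 62.5 and 72.9 at 72 h, a difference from 24 h of -2.76 ± 0.15 (adjusted p = 0.00118) and from 0 h of -3.42 ± 0.15. Its values at 72 h lay far below every earlier array. The guidance factor Sema3d was at least 4.15-fold lower than at 0 h. The Golgi pseudokinase Fam20a and the orphan receptor Gprc5c, each read well above background by only 1 array at 72 h, differed from 24 h by -2.43 and -2.24. With normexp the differences from 0 h were -0.98 for Fbln5, -0.56 for Sema3d, -1.02 for Fam20a and -0.85 for Gprc5c.

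**Figure D4:**
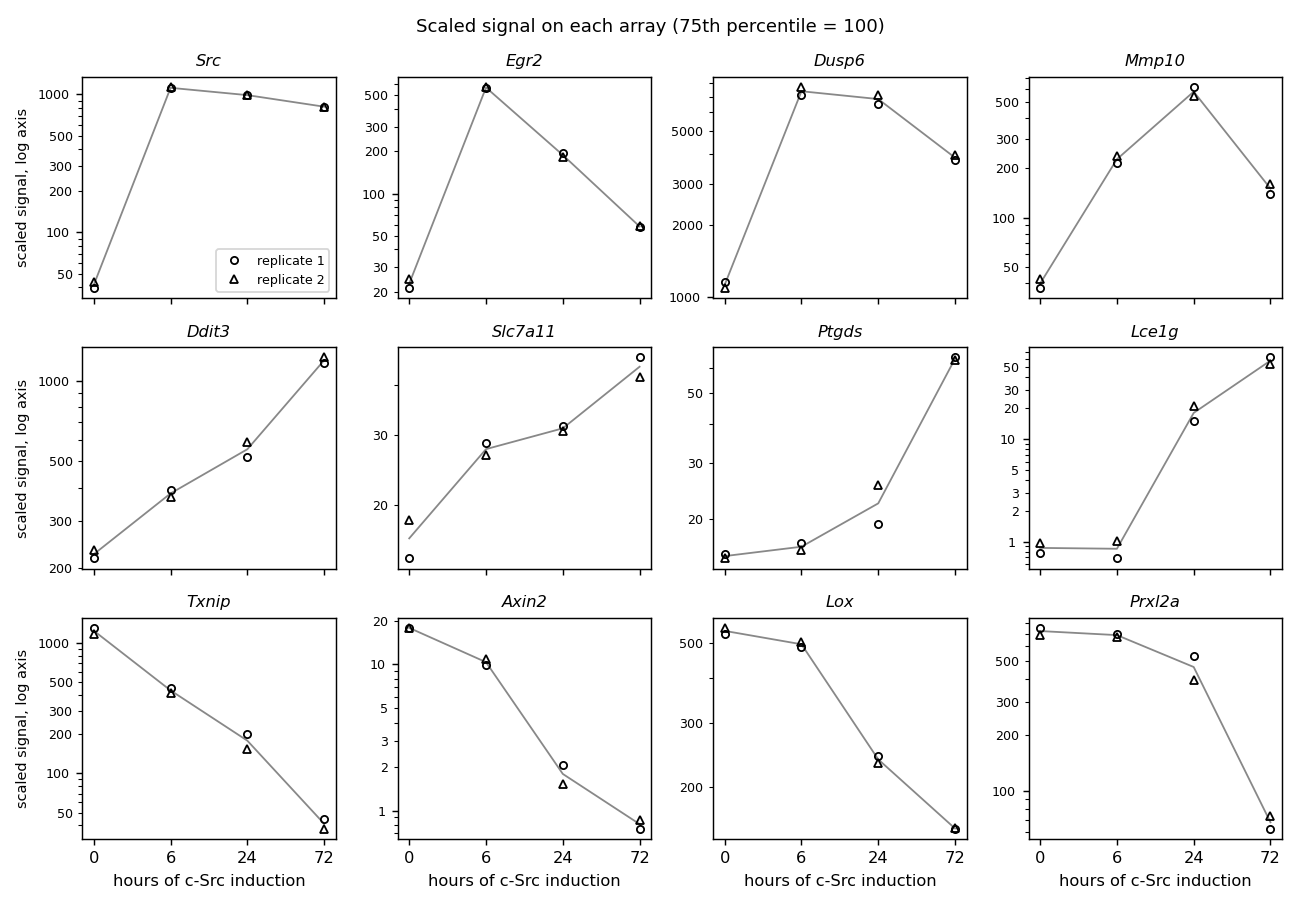
Scaled signal of 12 genes on all 8 arrays, on log axes that differ between panels, against hours of induction spaced evenly by time point. Circles are replicate 1, triangles replicate 2 and lines join the means of the scaled signals: Src, Egr2 and Dusp6 are highest at 6 h and Mmp10 at 24 h, Ddit3, Slc7a11, Ptgds and Lce1g are highest at 72 h, and Txnip, Axin2, Lox and Prxl2a are lowest at 72 h.

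Defining markers of cell types were read to check the label. Of 12 fibroblast markers 9 were tested; Thy1 stayed near background on all 4 arrays, and Prrx1 and Fap were well above it on 1 array, at 0 h. The tested ones split: Twist2, Ddr2, Vim and Twist1 were 1.02, 0.71, 0.65 and 0.54 higher, and Pdgfrb, Pdgfra and 3 collagen genes were lower. The summed fibroblast signal was 32548 and 33308 at 72 h, against 36478 and 36163 at 0 h. Epithelial markers Epcam and Cdh1 were not well above background at either time, Krt8 and Krt18 rose by 0.93 ± 0.11 and 0.34 ± 0.10, Krt19 fell by 1.46 ± 0.33, 2 of the 5 tested were higher and 2 lower, and the summed epithelial signal of 10 markers was 531.3 and 512.8 at 72 h, against 318 and 397.4 at 0 h. Most of the epithelial sum, and its rise, came from Krt8, with 407 and 383 at 72 h, against 198 and 218 at 0 h. Of macrophage markers, Ptprc and Adgre1 did not meet the brightness rule, Csf1r rose by 0.44 ± 0.08, Cd68 was at least 2.92-fold higher (adjusted p = 0.000121 by limma, in part set by its entry through the 72 h arrays alone), the other 2 tested, Itgam and Cd14, did not pass, and the sum was 1753 and 1828 at 72 h, against 1701 and 1846 at 0 h. Most of that sum came from Itgam, with 1558 and 1624 at 72 h, against 1559 and 1669 at 0 h.

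The sums of adipocyte markers, 400.4 and 415.7 at 72 h against 642.7 and 655.2 at 0 h, and of skeletal muscle markers, 75 and 78 at 72 h against 128.9 and 130.3 at 0 h, were lower at 72 h. The adipocyte sum fell through Lpl, with 205 and 211 at 72 h, against 544 and 557 at 0 h. Fabp4 went the other way, with 161 and 172 at 72 h, against 46.1 and 42.7 at 0 h. Of 4 tested adipocyte markers 3 were lower and 1 higher. The muscle sum fell through Tnnt1, with 11.4 and 14.6 at 72 h, against 69.2 and 70.2 at 0 h. Des, the only other muscle marker tested, had 59.1 and 57.8 at 72 h, against 55.2 and 54.2 at 0 h, and did not pass. Lpl and Cebpa fell by 1.41 ± 0.06 and 1.37 ± 0.15, Pparg by 0.45 ± 0.06, and Fabp4 rose by 1.91 ± 0.13; Adipoq and Plin1, like Myod1 and Myog, did not meet the brightness rule. Of 4 tested endothelial markers only Tek passed (adjusted p = 0.00128 by limma, in part set by its entry through the 0 h arrays alone), at least 2.71-fold lower. The endothelial sums were 235.3 and 237.9 at 72 h, against 246.2 and 241.8 at 0 h. In bulk RNA, fewer cells of a kind and less RNA per cell cannot be told apart, and the part of cell mixture in these differences was not tested.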

How the data were processed

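RNA from Csk-/- MEFs with inducible c-Src was measured at 0, 6, 24 and 72 h on 1-colour Cy3 arrays, 2 per time. The file headers name Feature Extraction 10.5.1.1 and the mm9 build, the submitters' processing notes version 10.7.3.1; which one applies is not known. The authors deposited a linear intensity for each spot, which per the file headers is background-subtracted; the deposited value table differs from it by at most 0.497%. Here log2 of that deposited intensity was taken and the 75th percentile of each array's 59305 non-control spots subtracted. Flagged outlier spots (146 to 208 per array) were dropped where another spot remained, spots of a probe were averaged, and no spot was saturated. The probe with the highest mean over the 72 h and 0 h arrays stood for its gene. Of 55681 probes, 26679 took their name from a RefSeq accession, 2543 from a symbol, 474 from a synonym, and 25985 retained that of the file; 7663 tested genes have names of clones, loci or the like and were counted but not named. The number of arrays limits the precision.

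Tests used limma 3.58.1 under R 4.3.3 (lmFit and eBayes, 4 time means over 8 arrays, 4 residual degrees of freedom, prior 1.75), adjusted by Benjamini-Hochberg over 20594 genes, with a threshold of 0.05; the script was tested on simulated data. Same-numbered samples of 72 h and 0 h were not treated as pairs: their deviations correlated at 0.064. Alternatives were median and quantile scaling, normexp with an offset of 50, other filters and floors, each array left out, the replicate block, every probe, the deposited value table and a variance trend. Genes were named by rule: Src, Csk and Fer, 12 rises and 12 falls by size, 6 each by bound, 6 each late, and for a list its defining members and as many as 4 of the strongest calls; some list members are not reported by name here. The comparison, gene lists and motifs were chosen with earlier results of these data known. Sequences are from RefSeq (GRCm38.p6), probe positions from the files (mm9).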

Additional observations from a re-analysis of the deposited data

How the results depend on the processing

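Of 149 named genes, 141 kept their call in every alternative setting that gave them a value, 19 for most and 18 for those that the filter on all 4 arrays removes, and none changed direction; among those that lost it were Cdc45 and Cox6c in 5 settings each, Igfbp3 in 2, and Gins2, Ndufs1, Rrm2 and Tap2 in 1 each. Median scaling gave 2685 lower genes for 72 h against 0 h, 2538 lower for 72 h against 6 h, and 2653 calls with 994 lower for 72 h against 24 h; it left 4 MHC class I and 4 insulin-like growth factor genes called. Leaving out 1 array at a time gave between 1193 and 4080 calls for 72 h against 24 h, 476 to 2279 of them higher and 717 to 1876 lower, and between 3202 and 4845 higher for 72 h against 6 h. Among list counts, quantile scaling called 4 G2/M and 5 oxidative phosphorylation genes, no filter on dim probes called 4 G2/M, 4 DNA replication, 3 oxidative phosphorylation and 9 Src family genes, the fit on the 4 arrays alone called 4 DNA replication and 5 oxidative phosphorylation genes, and asking for all 4 arrays well above background left 1 proliferin gene. Leaving out 1 array at a time gave 5 to 9 G2/M, 4 to 6 DNA replication and 2 to 6 oxidative phosphorylation genes. The cause of these shifts was not tested. With the replicate number as a block, 11447 genes were called, 6031 higher and 5416 lower. The replicate number is also the slide block, as each block holds 1 array of every time; well-above-background spots made up 52.1% to 54.7% of an array in the first block and 49.9% to 51.5% in the second. Within a block each time has 1 array, so there is no test. Log2 differences of dim genes were smaller under normexp, whose offset of 50 shrinks them by itself, and the part of the correction was not separated.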

Other observations

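The gene groups that follow were put together after their values had been seen, so their counts are a description. Retinoid genes were mostly lower: of 10 tested genes of retinoid metabolism and receptors 7 fell and 2 rose, with a median of -1.53. Beside Rdh10 and Stra6, the retinaldehyde dehydrogenase Aldh1a2 was at least 4.17-fold lower (adjusted p = 9.9e-05 by limma, in part set by its entry through the 0 h arrays alone), the retinaldehyde reductase Dhrs3 fell by 1.69 ± 0.08 and the receptor Rara by 0.76 ± 0.06. Crabp2, which carries retinoic acid, and the receptor Rxra rose by 1.00 ± 0.11 and 1.07 ± 0.11.

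Semaphorins and their receptors counted 3 higher and 10 lower of 22 tested, with a median of -0.15. The co-receptor Nrp1 had 15.6 and 17.3 at 72 h, against 79.6 and 79.3 at 0 h, a difference of -2.27 ± 0.14, whereas its relative Nrp2 rose by 0.75 ± 0.05. Plxnb1 fell by 1.74 ± 0.07, Sema3f by 1.21 ± 0.04 and Sema3a by 1.02 ± 0.05, and Sema5a had 86.7 and 89.0 at 72 h, against 12.4 and 13.4 at 0 h, a difference of 2.77 ± 0.11 (adjusted p = 4.62e-05 by limma). Lysosomal genes counted 15 higher and 3 lower of 23, with a median of 0.31: the calcium channel Mcoln1, the hexosaminidase subunit Hexa, the cholesterol transporter Npc1 and cathepsin B (Ctsb) rose by 0.99 ± 0.06, 0.90 ± 0.08, 0.87 ± 0.12 and 0.77 ± 0.05, while cathepsins K (Ctsk) and F (Ctsf) fell by 1.39 ± 0.22 and 1.25 ± 0.09.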
